A study of Arabidopsis thaliana with 48 samples.

Results

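The 10 genes described here are markers of salicylic acid and immune signalling in Arabidopsis thaliana: EDS1 (AT3G48090), PAD4 (AT3G52430), SAG101 (AT5G14930), ICS1 (AT1G74710), FMO1 (AT1G19250), NPR1 (AT1G64280), WRKY70 (AT3G56400), PR1 (AT2G14610), PR2 (AT3G57260) and PR5 (AT1G75040). They were taken by locus identifier and are 10 of the 32824 genes quantified. Messenger RNA was sequenced from whole seedlings, 6 days old, of a RAP2.3 insertion line (T-DNA, labelled rap2.3) and of wild-type Col-0 (WT), the accession it is compared with. Each genotype was sampled in a control without stress (CT), under excess light (EL, 700 µmol m-2 s-1 against 50), heat (HS, 33 °C against 21 °C) and salt (S, 50 mM NaCl), and under the pairs EL+HS, S+EL and S+HS and all 3 stresses (S+EL+HS). Light and heat were given for 1.5 h to seedlings that had grown with or without salt in the medium, so salt acted over days and light and heat over hours. Each of the 16 groups had 3 libraries, called biological repeats in the labels and each made from many pooled seedlings, which makes 48. A single insertion line was used, all seedlings grew on plates of solid medium, and the labels name no pathogen. The treatments ask how abiotic stress, alone and combined, moves transcripts of an immune pathway.

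Salicylic acid is a phenolic hormone of defence against pathogens that feed on living cells. Intracellular immune receptors signal through EDS1, a lipase-like protein that pairs with its relatives PAD4 or SAG101. ICS1 makes isochorismate in plastids, the precursor of most pathogen-induced salicylic acid, and FMO1 makes N-hydroxypipecolic acid, the mobile signal of systemic resistance. NPR1 binds salicylic acid and, with TGA factors, switches on genes such as PR1, PR2 and PR5, whose secreted products act on microbes, while WRKY70 is a transcription factor downstream of salicylic acid that also dampens jasmonate responses. In earlier work on this plant, warm growth conditions weakened salicylic acid synthesis and immunity that depends on EDS1 and PAD4.

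The promoters of 4 of these genes are shown. As described below, EDS1, PAD4 and PR5 differed with heat and with salt on average in both genotypes, and WRKY70 was the only tested member that rose with heat on average. Each line holds the 250 bases before the annotated gene start in RefSeq's TAIR10.1, read 5′ to 3′ on the strand of the gene. Capitals mark the W box core TTGAC bound by WRKY factors, the TGACG core bound by TGA factors and the heat shock element core GAANNTTC, each searched on both strands, so that GTCAA and CGTCA are matches on the other strand.
EDS1 (chr3:17758148-17758397, minus strand): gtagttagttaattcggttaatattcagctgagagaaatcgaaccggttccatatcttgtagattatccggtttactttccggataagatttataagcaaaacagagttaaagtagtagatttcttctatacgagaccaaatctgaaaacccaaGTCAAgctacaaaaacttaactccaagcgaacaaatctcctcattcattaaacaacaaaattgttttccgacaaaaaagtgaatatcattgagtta
PAD4 (chr3:19430845-19431094, plus strand): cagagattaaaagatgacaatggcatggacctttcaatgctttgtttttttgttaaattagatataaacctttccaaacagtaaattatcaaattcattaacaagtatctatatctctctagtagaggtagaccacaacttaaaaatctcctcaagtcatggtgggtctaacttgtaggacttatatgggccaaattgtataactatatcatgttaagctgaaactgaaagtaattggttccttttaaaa
WRKY70 (chr3:20910624-20910873, minus strand): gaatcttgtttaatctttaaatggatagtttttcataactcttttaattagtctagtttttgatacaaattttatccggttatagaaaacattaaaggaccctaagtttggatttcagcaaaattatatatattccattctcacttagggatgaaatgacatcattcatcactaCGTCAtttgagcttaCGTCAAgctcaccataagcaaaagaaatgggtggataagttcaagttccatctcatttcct
PR5 (chr1:28177420-28177669, plus strand): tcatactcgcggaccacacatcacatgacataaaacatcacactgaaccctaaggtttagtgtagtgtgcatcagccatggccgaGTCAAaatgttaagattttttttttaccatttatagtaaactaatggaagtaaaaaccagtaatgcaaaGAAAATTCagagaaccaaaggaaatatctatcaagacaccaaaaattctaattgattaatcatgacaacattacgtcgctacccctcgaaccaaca
EDS1 had a W box core 96 bases before its start, and PAD4 had none of the 3 motifs in this window. WRKY70 had the TGA core at 76 and 61 bases, the nearer of which overlaps its W box core at 60. PR5 had a W box core at 165 bases and a heat shock element core at 96. Over all 10 genes, 5 held the W box core, against 44.9% of 27443 protein-coding promoters of the same length. Only WRKY70 held the TGA core, present in 18.6% of those promoters, and PR5 and FMO1 held the heat shock element core, present in 9.55%. A match is a description of letters and not a site of binding.

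Values are FPKM, fragment counts scaled by transcript length and by library size, and the read depth behind them is unknown. Differences are on the log2(FPKM + 1) scale with their standard error, from limma, and every adjusted p is a Benjamini-Hochberg value over all genes tested, called under 0.05. The transcript of RAP2.3 itself went against its label, at 206 to 602 FPKM in libraries labelled rap2.3 and 34.9 to 86.1 FPKM in the WT libraries. FPKM do not show whether that transcript is intact, so that genotype is named by its label throughout. The FPKM of a library summed to 765860 to 822875, and replicates of a group correlated across genes with r from 0.9691 to 0.9895. The libraries are bulk RNA, in which fewer cells of a type and less RNA per cell cannot be told apart. All 7 stress comparisons of a genotype share its 3 CT libraries, and WT CT replicate 1 held the highest WT value of ICS1, SAG101 and FMO1.

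**Figure D1:**
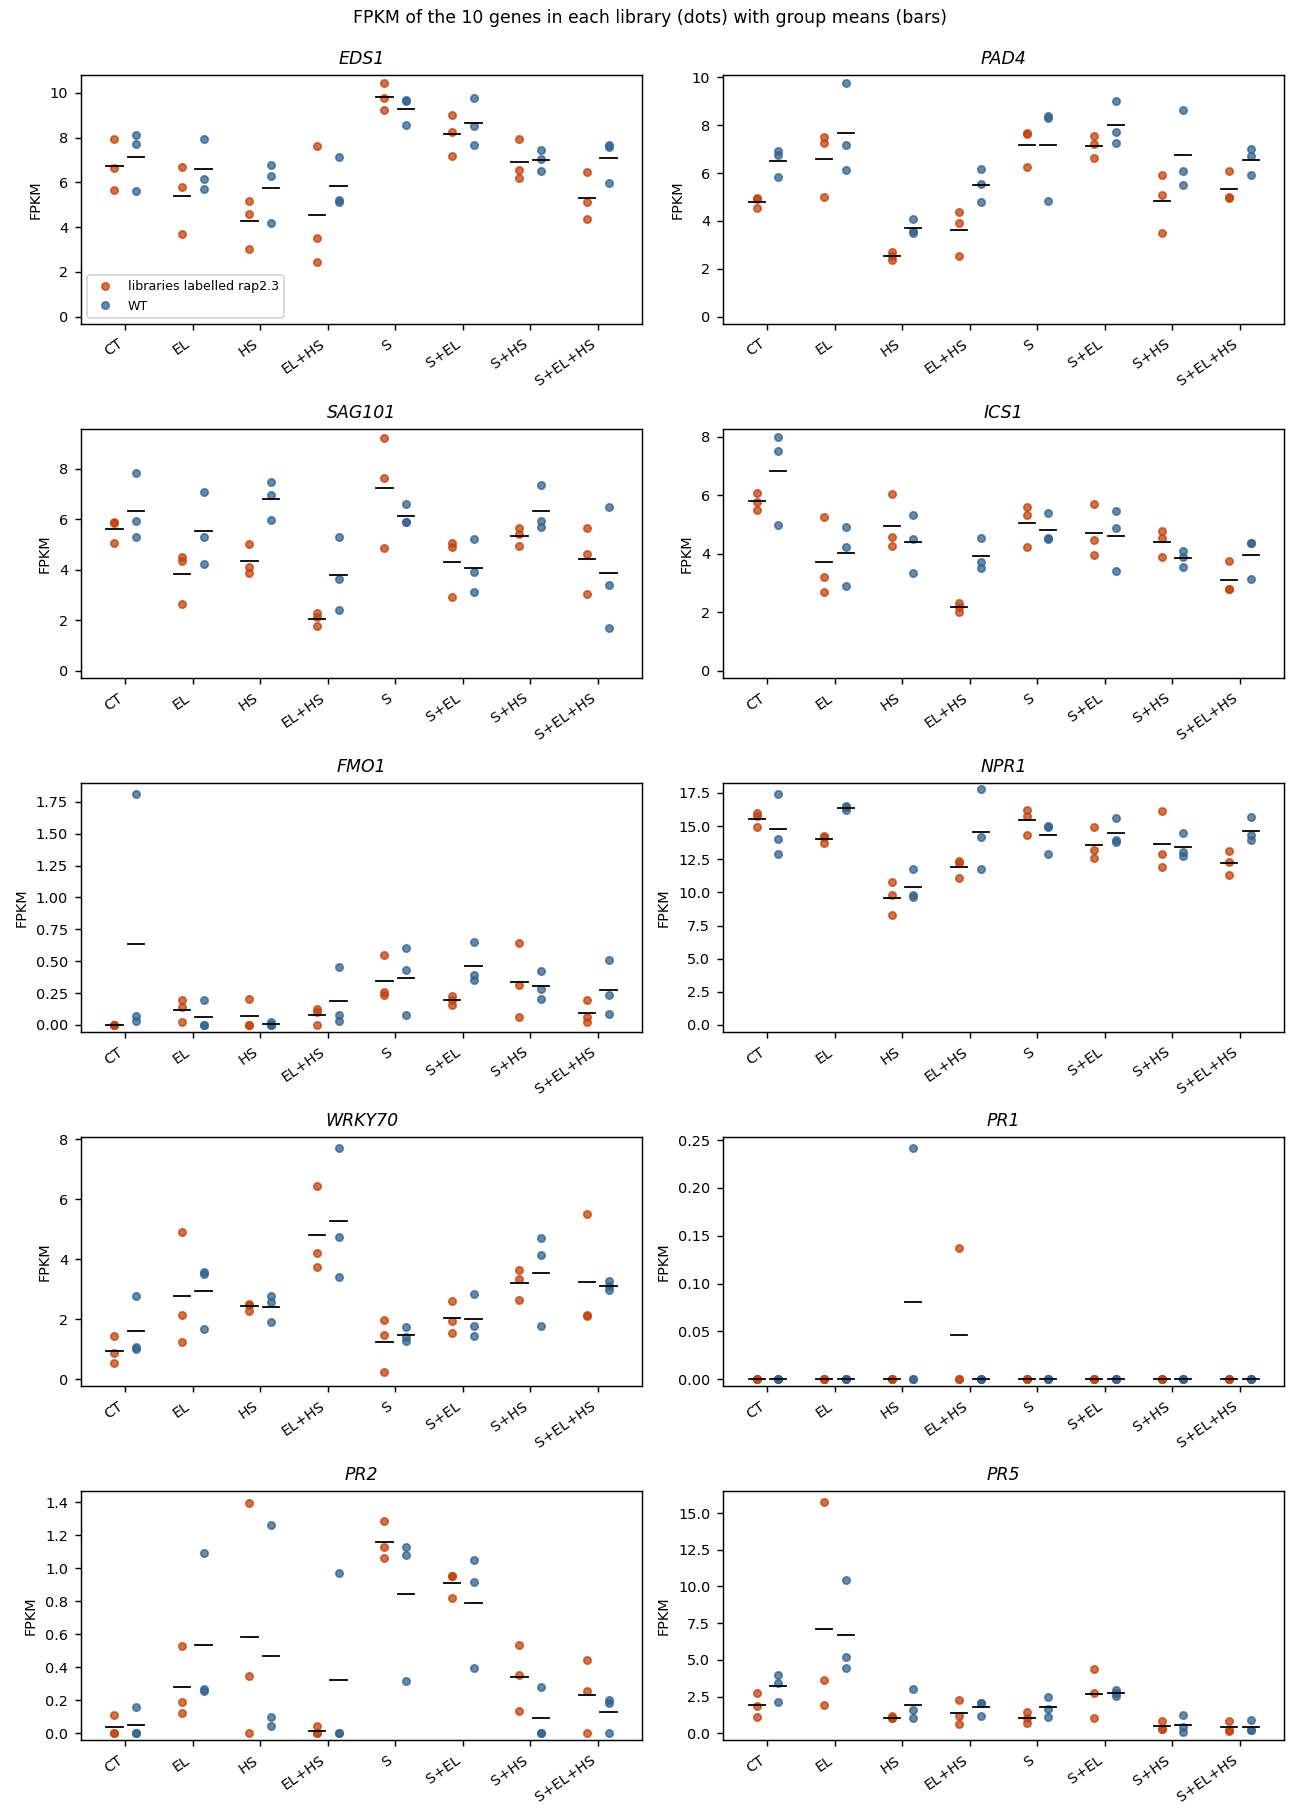
FPKM (y axis, linear) of the 10 genes in each of the 48 libraries (dots), by treatment (x axis), with group means as bars and the libraries labelled rap2.3 left of WT. PAD4 is lowest under HS and EDS1 highest under S in both genotypes, and PR1 is at 0 in 46 libraries.

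In unstressed seedlings the members spanned a wide range of levels. Under CT, NPR1 had the highest group mean, 15.6 FPKM in libraries labelled rap2.3 and 14.8 FPKM in WT. EDS1, PAD4, SAG101 and ICS1 followed with group means from 4.79 to 6.74 FPKM in libraries labelled rap2.3 and from 6.35 to 7.15 FPKM in WT. The 3 PR genes, WRKY70 and FMO1 lay below these, at 3.19 FPKM or less in every CT mean. A test needed 3 or more libraries with at least 1 FPKM, which 8 genes met in each genotype, while PR1 and FMO1 did not.

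PAD4 and EDS1, which act as a pair, fell with heat and rose with salt in both genotypes when averaged over the other stresses. PAD4 had 2.37, 2.55 and 2.71 FPKM under HS in libraries labelled rap2.3, against 4.94, 4.53 and 4.90 FPKM under CT. In WT it had 4.09, 3.59 and 3.50 FPKM under HS, against 6.91, 6.77 and 5.83 FPKM under CT. All HS libraries lay below all CT libraries in each genotype, with log2 differences of -0.71 ± 0.17 (adjusted p 0.00362) in libraries labelled rap2.3 and -0.67 ± 0.18 (0.00856) in WT, and both calls held in all 11 alternative settings of pseudocount, filter, scaling, replicate block and libraries. HS had the lowest of the 8 PAD4 group means in each genotype, 2.54 ± 0.17 FPKM in libraries labelled rap2.3 and 3.73 ± 0.32 FPKM in WT (SD, n = 3), and EL+HS had the next lowest. The HS and EL+HS libraries did not overlap in WT and overlapped in libraries labelled rap2.3.

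The factorial layout gives each factor 4 pairs of groups that differ in nothing else, for heat HS against CT, EL+HS against EL, S+HS against S and S+EL+HS against S+EL. Averaged over these pairs, PAD4 was lower with heat by a log2 difference of -0.57 ± 0.09 in libraries labelled rap2.3 (adjusted p 1.56e-05) and of -0.35 ± 0.09 in WT (0.00395). It was lower in 4 of 4 pairs in each genotype, without overlap of the libraries in 4 pairs of the libraries labelled rap2.3 and in 2 of WT. With salt PAD4 was higher in 4 of 4 pairs, on average by a log2 difference of 0.45 ± 0.09 in libraries labelled rap2.3 (0.00021) and of 0.27 ± 0.09 in WT (0.0217). After rescaling of the libraries by size factors the WT salt difference was 0.18 and no longer passed (0.0985). Against CT, PAD4 in libraries labelled rap2.3 passed under S (0.49 ± 0.17, 0.0387) and S+EL (0.49 ± 0.17, 0.0316), without overlap, but lost each call in 5 of 6 fits that left out 1 library, namely any CT library, S replicate 1 or 2 and S+EL replicate 1 or 3 (adjusted p up to 0.125 and 0.0951). After rescaling both calls were lost (0.34, 0.143, and 0.41, 0.0542), and the S call was lost with the replicate block (0.0532). Its light call there (0.22 ± 0.09, 0.0461) passed in 6 of 28 alternatives and was lost in 20 of 24 fits without 1 library.

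EDS1 had 10.4, 9.22 and 9.79 FPKM under S in libraries labelled rap2.3, against 6.65, 5.65 and 7.93 FPKM under CT. In WT it had 9.67, 9.65 and 8.55 FPKM under S, against 8.12, 5.62 and 7.70 FPKM under CT. The salt libraries lay above the control libraries in each genotype, although this comparison alone did not pass (adjusted p 0.162 in each). Over the 4 pairs EDS1 was higher with salt by a log2 difference of 0.48 ± 0.13 in libraries labelled rap2.3 (0.00331) and of 0.30 ± 0.08 in WT (0.00565), in 4 of 4 pairs each. Under HS it had 3.03, 4.58 and 5.18 FPKM in libraries labelled rap2.3 and 4.17, 6.27 and 6.77 FPKM in WT. Over the 4 pairs EDS1 was lower with heat by a log2 difference of -0.47 ± 0.13 (0.00464) in libraries labelled rap2.3 and of -0.27 ± 0.08 (0.013) in WT, again in 4 of 4 pairs each. Under EL+HS it had 2.44, 3.52 and 7.61 FPKM in libraries labelled rap2.3 (-0.59, 0.0683), and without replicate 3, the high library, that difference from CT was -0.96 and passed (0.00209). The 4 mean differences of EDS1 passed in all 28 alternative settings. EDS1 has a near copy beside it, EDS1B (AT3G48080), with a median of 0.48 FPKM in libraries labelled rap2.3 and 0.726 FPKM in WT, and reads could be split between them.

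SAG101, the partner of EDS1 in cell death signalling, was lower with light on average. Under EL alone SAG101 differed from CT by -0.47 in libraries labelled rap2.3 and by -0.18 in WT, and neither difference passed. Under EL+HS it had 2.13, 1.79 and 2.28 FPKM in libraries labelled rap2.3, against 5.84, 5.08 and 5.90 FPKM under CT, a difference of -1.11 ± 0.22 without overlap (adjusted p 0.000476, 11 of 11 alternatives). In WT the EL+HS values were 3.66, 2.43 and 5.31 FPKM, against 7.82, 5.92 and 5.31 FPKM under CT (-0.65 ± 0.28, 0.082), which did not pass. Over the 4 pairs with and without light, SAG101 was lower with light by a log2 difference of -0.54 ± 0.11 in libraries labelled rap2.3 (0.000588) and of -0.53 ± 0.14 in WT (0.00666), in 4 of 4 pairs each and in all 28 alternatives. With salt it was higher in libraries labelled rap2.3 (0.37 ± 0.11, 0.0076; 0.25 and 0.0524 after rescaling), while in WT the difference was -0.13 ± 0.14 (0.453). The difference between these salt effects, 0.50 ± 0.18, did not pass over all genes (p 0.00851, adjusted p 0.762). With heat SAG101 was lower by a log2 difference of -0.31 ± 0.11 in libraries labelled rap2.3 (0.0211) and in WT the difference was -0.13 ± 0.14 (0.479). A WT call at S+EL+HS (-0.70, 0.0495) passed in 3 of 11 alternatives. It was -0.34 (0.335) without WT S+EL+HS replicate 3, the library with 1.70 FPKM, and was lost as well without S+EL+HS replicate 1 or any CT library.

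ICS1, the enzyme that commits chorismate to salicylic acid, was highest under CT in each genotype and fell under several stresses. Under EL+HS it had 2.19, 2.33 and 2.003 FPKM in libraries labelled rap2.3, against 5.78, 5.51 and 6.08 FPKM under CT. That difference of -1.098 ± 0.18 (adjusted p 7.43e-05) and the one at S+EL+HS (-0.73 ± 0.18, 0.00239) held in all 11 alternatives. In WT ICS1 was 3.53, 3.91 and 4.09 FPKM under S+HS, against 7.98, 4.98 and 7.51 FPKM under CT, which passed in all 11 alternatives (-0.67 ± 0.19, 0.00783). The libraries of those groups did not overlap in either genotype.

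Other ICS1 calls against CT were lost when single libraries were left out. In WT the differences were -0.64 under EL, -0.53 under HS, -0.65 under EL+HS and -0.65 under S+EL+HS (adjusted p 0.0256, 0.042, 0.0144 and 0.0114). Without WT CT replicate 1 they were -0.53, -0.42, -0.54 and -0.54 and no longer passed (0.117, 0.167, 0.0729 and 0.0604), and without WT CT replicate 3 those under EL, HS and EL+HS were lost as well (0.0959, 0.135 and 0.06). The EL call was also lost without WT EL replicate 3 (0.141), the HS call without WT HS replicate 1 (0.185) or 2 (0.0757), and the S+EL+HS call without WT S+EL+HS replicate 1 (0.065). In libraries labelled rap2.3 the difference under EL, -0.56 ± 0.18 (0.0364), passed in 4 of 11 alternatives and was lost without any of 5 libraries, the 3 CT libraries and EL replicates 2 and 3 (0.182 without the last). Over the 4 pairs ICS1 was lower in libraries labelled rap2.3 with light (-0.49 ± 0.09, 0.000219) and with heat (-0.34 ± 0.09, 0.00312), in 4 of 4 pairs and all 28 alternatives for each. In WT the mean heat difference was -0.24 ± 0.10 (0.0447, 9 of 28 alternatives, lost in 16 of 24 fits without 1 library and 0.0879 without WT HS replicate 1), and the mean light difference was -0.20 ± 0.10 (0.13).

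FMO1 was near the floor of the measurement. In libraries labelled rap2.3 it was listed at 0 in 6 of 24 libraries, among them all 3 of CT, and reached 0.647 FPKM at most. In WT it was listed at 0 in 4 of 24 libraries, and its highest value, 1.81 FPKM in CT replicate 1, stood far from the other CT values of 0.07 and 0.029 FPKM. Under S it had 0.24, 0.26 and 0.55 FPKM in libraries labelled rap2.3 and 0.43, 0.60 and 0.08 FPKM in WT. Without the filter on low values, the differences in libraries labelled rap2.3 passed for S (0.42, adjusted p 0.0204) and S+HS (0.40, 0.0181) against CT and for the mean over the 4 salt pairs (0.21, 0.00926). They rest wholly or in part on the CT libraries listed at 0 and are given as a description. No FMO1 difference in WT passed without the filter, and that of S against CT was -0.11.

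NPR1, the salicylic acid receptor, varied least of the 8 tested genes, with a highest group mean 1.62 times the lowest in libraries labelled rap2.3 and 1.57 times in WT. Its 24 values ran from 8.28 to 16.2 FPKM in libraries labelled rap2.3 and from 9.66 to 17.8 FPKM in WT. HS gave the lowest group of each genotype, with 8.28, 10.8 and 9.78 FPKM in libraries labelled rap2.3, against 15.98, 14.96 and 15.77 FPKM under CT, and 9.66, 9.77 and 11.8 FPKM in WT, against 17.41, 14.03 and 12.92 FPKM under CT. No HS library reached a CT library. The difference was -0.65 ± 0.11 in libraries labelled rap2.3 (adjusted p 0.000158, 11 of 11 alternatives) and -0.47 ± 0.13 in WT (0.00855), which became -0.35 (0.0633) without WT CT replicate 1. Over the 4 pairs NPR1 was lower with heat by a log2 difference of -0.30 ± 0.06 in libraries labelled rap2.3 (0.000174) and of -0.18 ± 0.06 in WT (0.0276). The WT value was lost without WT CT (0.0565), WT EL+HS (0.0546) or WT S+EL (0.0516) replicate 1. In WT it was also higher with light (0.18 ± 0.06, 0.0395), in 13 of 28 alternatives, and lost in 14 of 24 fits without 1 library (0.077 without WT CT replicate 3). Under EL+HS the libraries labelled rap2.3 had a log2 difference from CT of -0.36 ± 0.11 (0.0126), which was -0.15 (0.255) after rescaling and -0.32 (0.0507) without rap2.3 EL+HS replicate 3. Their S+EL+HS difference of -0.33 ± 0.11 (0.0227) passed in 8 of 11 alternatives and was lost without rap2.3 CT replicate 1 (0.0674), rap2.3 CT replicate 3 (0.0552) or rap2.3 S+EL+HS replicate 3 (0.0917). On the other strand NPR1 overlaps AT1G64270 and AT1G08667, and AT1G08667 reached 0.00598 FPKM at most.

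WRKY70 was the only tested member that rose with heat on average over the 4 pairs. Under HS alone its differences from CT, 0.84 in libraries labelled rap2.3 (adjusted p 0.0761) and 0.44 in WT, did not pass. The HS and CT libraries overlapped in WT only, and the first difference passed with only the compared libraries (0.0321). Under EL+HS WRKY70 had 3.75, 4.22 and 6.45 FPKM in libraries labelled rap2.3, against 1.43, 0.52 and 0.87 FPKM under CT. In WT it had 3.40, 4.72 and 7.70 FPKM under EL+HS, against 2.78, 0.99 and 1.06 FPKM under CT. The libraries did not overlap in either genotype, and the differences of 1.58 ± 0.35 (adjusted p 0.00136) and 1.27 ± 0.30 (0.00307) passed in all 11 alternatives. EL+HS was the highest WRKY70 group in each genotype. Over the 4 heat pairs WRKY70 was higher with heat by a log2 difference of 0.74 ± 0.17 in libraries labelled rap2.3 (0.0015) and of 0.60 ± 0.15 in WT (0.00267), in 4 of 4 pairs and all 28 alternatives.

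With light WRKY70 was higher by a log2 difference of 0.51 ± 0.17 in libraries labelled rap2.3 (adjusted p 0.0228, 28 of 28 alternatives) and of 0.41 ± 0.15 in WT (0.0477), where 9 of 28 alternatives passed and 17 of 24 fits without 1 library did not (0.0911 without WT S+HS replicate 1). S+HS and S+EL+HS also exceeded CT in libraries labelled rap2.3 (1.13 ± 0.35, 0.013, and 1.06 ± 0.35, 0.0192). Without rap2.3 CT replicate 2, the lowest control, these were 0.97 (0.062) and 0.90 (0.0816), and the S+EL+HS difference was 0.70 (0.128) when its replicate 2 was left out. In WT the S+HS difference of 0.80 ± 0.30 (0.036) passed in 4 of 11 alternatives and was lost without WT CT replicate 2 (0.14) or 3 (0.128) or WT S+HS replicate 2 (0.122) or 3 (0.159). Over the 16 group means of log2(FPKM + 1), which come from the same libraries, WRKY70 and ICS1 had a Pearson r of -0.766, given as a description.

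PR1, the classical readout of salicylic acid signalling, was listed at 0 in 46 of 48 libraries. The exceptions were 0.14 FPKM in rap2.3 EL+HS replicate 2 and 0.24 FPKM in WT HS replicate 1. No PR1 comparison was possible at these values.

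PR2 encodes a beta-1,3-glucanase and had its highest group means under S and S+EL. Under S it had 1.07, 1.29 and 1.13 FPKM in libraries labelled rap2.3, against 0.11 FPKM in CT replicate 2 and CT replicates 1 and 3 listed at 0. Under S+EL it had 0.96, 0.82 and 0.96 FPKM there. WT had 1.13, 0.32 and 1.08 FPKM under S and 1.05, 0.40 and 0.92 FPKM under S+EL, against 0.16 FPKM in CT replicate 2 and CT replicates 1 and 3 listed at 0. No salt library of these groups reached down to a control library in either genotype. In libraries labelled rap2.3, 4 libraries reached the 1 FPKM needed for a test, 3 of them the S libraries. PR2 was thus tested there because it was high under S, and its salt differences of 1.06 ± 0.24 under S, 0.88 ± 0.24 under S+EL and 0.44 ± 0.12 over the salt pairs are given as a description, with no test. In WT the differences were 0.78 ± 0.32 under S (0.0955) and 0.75 ± 0.32 under S+EL (0.0717) and did not pass, and the mean over the salt pairs was 0.13 ± 0.16 (0.528). There 5 libraries reached 1 FPKM, among them S replicates 1 and 3 and S+EL replicate 1, so the WT tests of PR2 rest on salt libraries too. Under S+HS PR2 had 0.35, 0.53 and 0.13 FPKM in libraries labelled rap2.3, and in WT 0.28 FPKM in replicate 3 with replicates 1 and 2 listed at 0. The mean heat difference in libraries labelled rap2.3, -0.29 ± 0.12, is a description as well, since the S libraries stand on its side without heat. In WT the mean heat difference of -0.31 ± 0.16 (0.115) did not pass. Without HS replicate 2 the heat value of libraries labelled rap2.3 was -0.38. The WT heat value passed in 2 of 28 alternatives, without HS replicate 1 (-0.40, 0.03) or EL+HS replicate 1 (-0.39, 0.0374). Its near copy BG3 (AT3G57240) reached 0.272 FPKM at most in libraries labelled rap2.3 and 0.231 FPKM in WT.

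PR5, a thaumatin-like protein, reached the highest FPKM of the PR genes. Under S+HS it had 0.83, 0.32 and 0.27 FPKM in libraries labelled rap2.3, against 2.77, 1.86 and 1.13 FPKM under CT. WT had 1.25, 0.42 and 0.067 FPKM under S+HS and 0.87, 0.22 and 0.23 FPKM under S+EL+HS, against 2.11, 3.99 and 3.45 FPKM under CT. No library of these stress groups reached a control library. The WT differences of -1.45 ± 0.32 (adjusted p 0.000914) and -1.54 ± 0.32 (0.000649) passed in all 11 alternatives, while those of the libraries labelled rap2.3, -0.97 (0.0946) and -1.06 (0.0681), did not pass. These passed in 2 of 11 alternatives under S+HS, with a pseudocount of 0.1 (0.033) and with only the compared libraries (0.0187), and in 3 of 11 under S+EL+HS, with the replicate block (0.0436), a pseudocount of 0.1 (0.0132) and only the compared libraries (0.0163). The interaction tests reported with the genotypes found no PR5 difference that passed.

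Over the 4 pairs PR5 was lower with heat by a log2 difference of -0.93 ± 0.23 in libraries labelled rap2.3 (adjusted p 0.00227) and of -1.06 ± 0.16 in WT (1.63e-05). It was also lower with salt, by a log2 difference of -0.64 ± 0.23 (0.0234) in libraries labelled rap2.3 and of -0.85 ± 0.16 (0.000194) in WT. All 4 of these mean differences had the same sign in 4 of 4 pairs and passed in all 28 alternatives. PR5 was thus lower with salt, while PAD4 and EDS1 were higher. Under EL it had 15.7, 3.61 and 1.95 FPKM in libraries labelled rap2.3 and 10.4, 4.45 and 5.22 FPKM in WT. EL replicate 1 was the highest PR5 library of each genotype, and the differences from CT, 1.101 ± 0.46 (0.117) and 0.83 ± 0.32 (0.076), did not pass. They did without rap2.3 EL replicate 3 (1.63, 0.0248) and without WT EL replicate 2 (1.04, 0.0474).

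**Figure D2:**
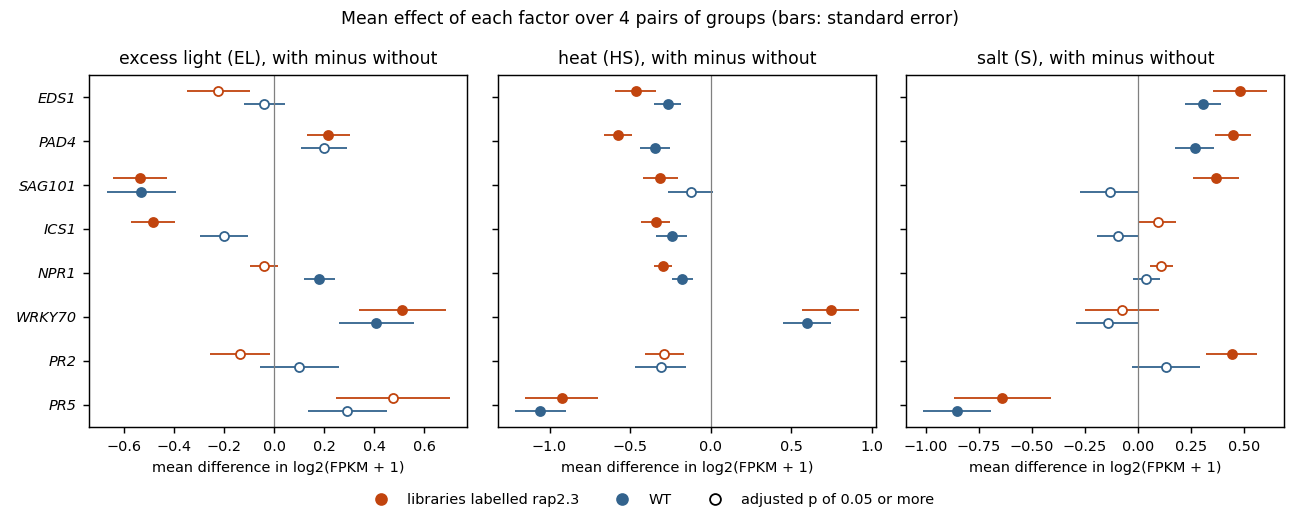
Mean difference in log2(FPKM + 1) with minus without EL, HS or S (x axis) for the 8 tested genes (y axis), with the libraries labelled rap2.3 above WT, standard errors as bars and filled dots for adjusted p under 0.05. With heat WRKY70 stands right of 0 and PR5, PAD4, EDS1, ICS1 and NPR1 stand left of it in each genotype. The salt and heat values of PR2 in libraries labelled rap2.3 are a description, since its S libraries brought it into the test.

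Counted over the members, heat had the most one-sided result. With heat 6 of 8 members fell and 1 rose in libraries labelled rap2.3, where 34.1% of 20592 genes fell and 16.2% rose. In WT 5 of 8 fell and 1 rose, where 28.5% of 20744 genes fell and 18.8% rose. The median log2 difference with heat was -0.33 over the members in libraries labelled rap2.3 against -0.10 over all genes, and -0.25 in WT against -0.06. With salt 4 rose, counting PR2, which was tested because of its S libraries, and 1 fell in libraries labelled rap2.3 (41.1% of all genes rose and 12.6% fell), and 2 rose and 1 fell in WT (33.4% and 12.5%). The salt counts were near the shares over all genes. With light 2 rose and 2 fell in libraries labelled rap2.3 (12.3% and 31.5% of all genes), and 2 rose and 1 fell in WT (13.3% and 14.5%). Single stresses and combinations against CT gave 15 calls among 56 member tests in libraries labelled rap2.3 (7 higher, 8 lower) and 12 of 56 in WT (2 higher, 10 lower). In libraries labelled rap2.3, 1 of 8 members passed under EL (14.3% of all genes), 2 under HS (29.9%), 4 under EL+HS (41.9%), 2 under S (26.2%), 2 under S+EL (34.7%), 1 under S+HS (42.9%) and 3 under S+EL+HS (42.7%). PR2 is 1 of the 2 under S and 1 of the 2 under S+EL. In WT, 1 passed under EL (17.7%), 3 under HS (30.8%), 2 under EL+HS (31.3%), 0 under S (18.7%), 0 under S+EL (36%), 3 under S+HS (44.9%) and 3 under S+EL+HS (39.9%). Most of these member shares lay near or below those over all genes, and without adjustment 25 tests of the libraries labelled rap2.3 and 19 of WT had a limma p under 0.05.

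Part of the salt difference was shared by most genes. The median of all genes with salt was 0.15 in libraries labelled rap2.3 and 0.11 in WT, and rescaling by size factors took these to 0.02 and 0.02. The higher genes then made up 54.6% of the calls in place of 76.5% in libraries labelled rap2.3, and 54.3% in place of 72.8% in WT. Relative to that median, EDS1 was 0.33 higher with salt in libraries labelled rap2.3 and 0.20 in WT, and PAD4 0.29 and 0.16. In libraries labelled rap2.3 the median of all genes was -0.12 with light, -0.10 with heat and -0.22 under EL+HS, and the higher share of calls moved from 28.1% to 53%, from 32.2% to 42.6% and from 26.4% to 48.7% on rescaling. Relative to the EL+HS median, ICS1 differed by -0.88, SAG101 by -0.89 and WRKY70 by 1.80.

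Organ markers moved with salt as well. Of 6 root markers, 4 rose with salt in each genotype, namely PYK10, EXP7, COBL9 and CASP1, with CASP1 higher by a log2 difference of 1.63 ± 0.13 in libraries labelled rap2.3 and of 1.39 ± 0.12 in WT. Among all genes 41.1% rose and 12.6% fell with salt in libraries labelled rap2.3, and 33.4% rose and 12.5% fell in WT. The summed FPKM of the 6 root markers was 3242 to 3970 under S in libraries labelled rap2.3, against 1326 to 2094 under CT, and 2744 to 4259 in WT, against 1701 to 2054 under CT. Of 4 shoot markers, LHCB1.1 fell with salt by a log2 difference of -0.65 ± 0.06 in libraries labelled rap2.3 and of -0.56 ± 0.06 in WT, and RCA fell with salt too (-0.45 ± 0.06 and -0.42 ± 0.06). RBCS1A rose with salt in libraries labelled rap2.3 (0.18 ± 0.06, adjusted p 0.0164) and did not pass in WT (0.07 ± 0.05, 0.292), and GL1 passed in neither (0.02 ± 0.12 and 0.18 ± 0.12). Summed shoot markers were 18378 to 19609 FPKM under S in libraries labelled rap2.3, against 20121 to 22076 under CT, and 17856 to 21562 in WT, against 18790 to 22573 under CT. With heat 4 root markers fell and 1 rose in libraries labelled rap2.3, and 3 fell and 2 rose in WT. Among all genes 34.1% fell and 16.2% rose with heat in libraries labelled rap2.3, and 28.5% fell and 18.8% rose in WT. The marker counts are of few genes. Of the shoot markers 3 fell with heat in libraries labelled rap2.3 and 2 in WT, among them LHCB1.1 (-0.50 ± 0.06 and -0.47 ± 0.06) and RBCS1A (-0.20 ± 0.06 and -0.25 ± 0.05). Their sum was 15385 to 17759 FPKM under HS in libraries labelled rap2.3 and 16257 to 17973 FPKM in WT, in each genotype below every CT library. No marker of either list was at 0 in all 3 libraries of a group. Their part in the salt and heat differences of the members was not tested. SAG12, a marker of leaf senescence, was listed at 0 in all 48 libraries.

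Other genes of the pathway were taken from 8 lists with 66 members, of which 58 were tested in each genotype. With heat 26 of them fell and 7 rose in libraries labelled rap2.3, and 24 fell and 9 rose in WT, where over all genes 34.1% fell and 16.2% rose in libraries labelled rap2.3 and 28.5% fell and 18.8% rose in WT. The 9 in WT include ALD1, which met the filter through its S libraries alone and is a description, with no test. The 58 list genes had medians of -0.19 and -0.15, beside -0.10 and -0.06 over all genes. In the list of EDS1 relatives and helper receptors, 6 of 8 fell with heat in each genotype, beside 34.1% and 28.5% of all genes, and NRG1.2, a helper receptor too, rose in WT (0.35 ± 0.09, adjusted p 0.00309). Those that fell were EDS1B, the helper receptors NRG1.1, ADR1 and ADR1-L1, the membrane protein NDR1 and the immune receptor SNC1. SNC1 had 30.1, 23.7 and 21.7 FPKM under HS in libraries labelled rap2.3, against 56.5, 58.1 and 58.6 FPKM under CT, and 27.7, 23.4 and 24.6 FPKM in WT, against 58.1, 54.8 and 53.1 FPKM under CT. Its mean heat difference was -0.58 ± 0.06 in libraries labelled rap2.3 (adjusted p 3.47e-07) and -0.59 ± 0.06 in WT (1.36e-07).

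Pattern-triggered signalling, which starts at receptors for microbial molecules, had 7 of 11 genes lower with heat in libraries labelled rap2.3 and 6 of 11 in WT, and 0 of 11 higher in either, where 34.1% and 28.5% of all genes were lower. BIK1, the kinase below those receptors, fell by a log2 difference of -0.61 ± 0.10 in libraries labelled rap2.3 and of -0.50 ± 0.09 in WT, and RBOHD, the oxidase of the immune oxidative burst, by -0.64 ± 0.10 and -0.46 ± 0.07. CBP60g, an activator of ICS1, fell with heat by a log2 difference of -0.85 ± 0.15 in libraries labelled rap2.3 and of -1.03 ± 0.23 in WT. ACD6, an ankyrin protein that raises salicylic acid levels, fell with heat (-0.96 ± 0.12 in libraries labelled rap2.3 and -0.999 ± 0.12 in WT) and with salt (-1.098 ± 0.12 and -1.096 ± 0.12).

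Some list genes rose with heat. NPR3 and NPR4, salicylic acid receptors that repress defence genes, rose by a log2 difference of 0.59 ± 0.09 and 0.42 ± 0.07 in libraries labelled rap2.3 and of 0.63 ± 0.07 and 0.52 ± 0.08 in WT. S3H and DMR6, which hydroxylate salicylic acid, rose by a log2 difference of 0.94 ± 0.16 and 0.49 ± 0.10 in libraries labelled rap2.3 and of 0.76 ± 0.18 and 0.46 ± 0.09 in WT. These were 2 of 4 tested genes of breakdown and conjugation in libraries labelled rap2.3 and 2 of 5 in WT, where 16.2% and 18.8% of all genes rose. Of that list 0 fell in this mean heat comparison. Against CT alone, UGT74F2, a glucosyltransferase of salicylic acid, was lower under HS in WT (-0.63 ± 0.24, adjusted p 0.0483). Of the NPR receptors and their partners, 2 rose and 4 fell among 12 tested in libraries labelled rap2.3, and 4 rose and 4 fell among 11 in WT. Of 4 tested genes of synthesis and export, 2 fell in libraries labelled rap2.3 and 1 in WT. Among the N-hydroxypipecolic acid genes, UGT76B1 rose (0.52 ± 0.08 in libraries labelled rap2.3 and 0.68 ± 0.11 in WT) and SARD4 fell (-0.82 ± 0.14 and -0.98 ± 0.08). ALD1 differed by 0.25 ± 0.17 and 0.40 ± 0.12, given as a description because its S libraries alone met the filter. Of 8 tested WRKY and CAMTA factors, 2 fell and 1 rose in libraries labelled rap2.3 and 2 fell in WT, and of 8 other defence outputs 4 fell and 1 rose in libraries labelled rap2.3 and 4 fell in WT. Over all genes 16.2% rose and 34.1% fell with heat in libraries labelled rap2.3, and 18.8% rose and 28.5% fell in WT. Several of these list counts lay near those shares.

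With salt 32 of the 58 list genes rose and 5 fell in libraries labelled rap2.3, and 25 rose and 6 fell in WT, and root markers rose too. Over all genes 41.1% rose and 12.6% fell in libraries labelled rap2.3 and 33.4% rose and 12.5% fell in WT. The list medians were 0.28 and 0.11, beside 0.15 and 0.11 over all genes. All 3 genes of N-hydroxypipecolic acid metabolism rose in each genotype, and these counts include ALD1. ALD1, which starts its synthesis, had 1.55, 1.58 and 1.01 FPKM under S in libraries labelled rap2.3, where CT was listed at 0 throughout. WT had 2.58, 1.80 and 1.15 FPKM under S, against 0.147 and 0.225 FPKM under CT with replicate 1 listed at 0. In each genotype the 3 S libraries alone met the 1 FPKM needed for a test, so the ALD1 rise is a description, with no test. UGT76B1, which glucosylates N-hydroxypipecolic acid, rose by a log2 difference of 1.66 ± 0.08 in libraries labelled rap2.3 and of 1.28 ± 0.11 in WT. ICS2, the weaker paralogue of ICS1, rose by a log2 difference of 2.28 ± 0.18 in libraries labelled rap2.3 and of 2.23 ± 0.21 in WT, whereas for ICS1 itself the differences were 0.09 ± 0.09 and -0.10 ± 0.10 (adjusted p 0.394 and 0.44). EDS5, the exporter of the salicylic acid precursor from plastids, rose by a log2 difference of 0.93 ± 0.14 in libraries labelled rap2.3 and of 0.75 ± 0.15 in WT. PDF1.2, a defensin of the jasmonate and ethylene branch, fell by a log2 difference of -2.29 ± 0.37 in libraries labelled rap2.3 and of -3.38 ± 0.37 in WT. Of the 77 list and marker genes, 26 overlap another annotated gene, among them ICS2, EDS5 and EDS1B, and whether reads were assigned by strand is not given in the sources used here.

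**Figure D3:**
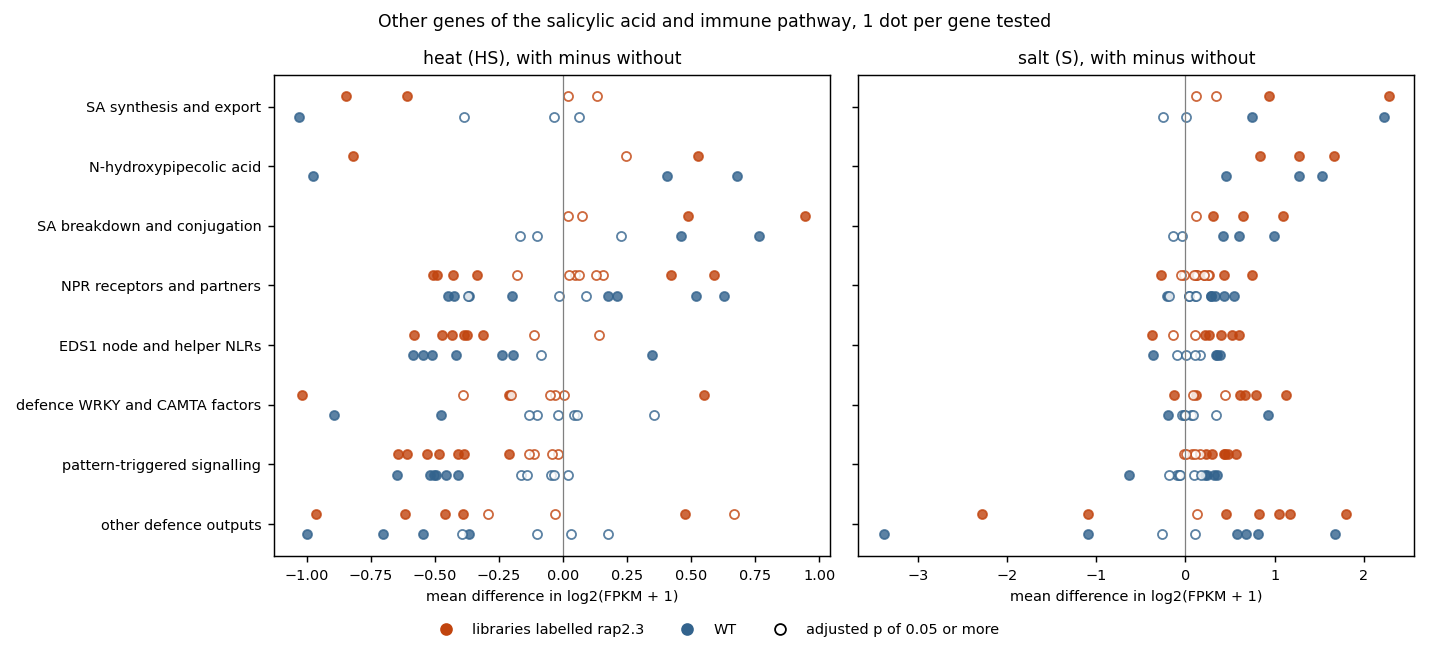
Mean difference in log2(FPKM + 1) with minus without heat (left) or salt (right) for each tested gene of the 8 pathway lists (y axis), with the libraries labelled rap2.3 above WT and filled dots for adjusted p under 0.05. With heat most filled dots of the EDS1 node and of pattern-triggered signalling lie left of 0, and with salt all 3 N-hydroxypipecolic acid genes lie right of it. The ALD1 dots are a description, since its S libraries brought it into the test.

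PAD4 was the member that differed between the genotypes on average. Over the 8 treatments it was lower in libraries labelled rap2.3 than in WT by a log2 difference of -0.28 ± 0.06 (adjusted p 0.00314), which held in all 53 alternatives with adjusted p from 0.000135 to 0.00653. It was lower at 7 of 8 treatments, S being the exception, and the libraries of the genotypes did not overlap at CT, HS and EL+HS. Under CT the 3 libraries labelled rap2.3 had 4.94, 4.53 and 4.90 FPKM, against 6.91, 6.77 and 5.83 FPKM in WT. This was 1 of 8 members, in a comparison where 9.41% of 21322 genes were lower and 0.858% higher. The median difference was -0.15 over the members and -0.04 over all genes, and the higher share of calls moved from 8.36% to 26.4% on rescaling.

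The other 7 tested members did not pass this mean comparison, with differences from -0.26 for PR5 (adjusted p 0.257) to 0.04 for PR2 (0.848). The EDS1 difference was -0.19 ± 0.08 (0.121), and it passed in 2 of 53 alternatives, with treatment and replicate number blocked together (0.00837) and without rap2.3 EL+HS replicate 3 (0.0175). PR5 passed when rap2.3 EL replicate 1 was left out (-0.36, 0.0411). Of the pathway lists, 9 of 59 genes were lower and 0 higher, among them PAD3 (-0.55 ± 0.14, 0.00848), UGT76B1 (-0.40 ± 0.07, 0.000591) and EDS5 (-0.36 ± 0.11, 0.0219). Among all genes in this comparison 9.41% were lower and 0.858% higher. Of the 6 root markers, 4 were lower too, CASP1 (-0.56 ± 0.09), PYK10 (-0.32 ± 0.07), COBL9 (-0.29 ± 0.09) and SHR (-0.22 ± 0.06). Their summed FPKM lay between 705 and 3970 in libraries labelled rap2.3 and between 1250 and 4259 in WT. The part of these markers in the PAD4 difference was not tested.

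At single treatments, 1 of 64 genotype tests passed. ICS1 at EL+HS had 2.19, 2.33 and 2.003 FPKM in libraries labelled rap2.3, against 3.52, 4.52 and 3.72 FPKM in WT, without overlap (-0.63 ± 0.18, adjusted p 0.0329). At that treatment 7.39% of 21322 genes passed, 6.97% lower and 0.417% higher, and the median of all genes was -0.14, near 0 after rescaling. ICS1 was then -0.52 (0.0578), and it was lost in 7 of 12 alternatives in all, among them each fit without 1 of the 3 libraries labelled rap2.3 (0.0817, 0.0509 and 0.102) or without WT EL+HS replicate 2 (0.0954) or 3 (0.102). PAD4 at EL+HS had 2.56, 3.93 and 4.36 FPKM in libraries labelled rap2.3, against 4.81, 5.54 and 6.19 FPKM in WT (-0.51 ± 0.18, 0.0664), which passed with treatment and replicate blocked together (0.00539). EDS1 at EL+HS (-0.40, 0.261) passed with that block (0.0403) and without rap2.3 EL+HS replicate 3 (-0.78, 0.0322). Deviations of same-numbered libraries of the genotypes correlated little at EL+HS (r 0.016, 0.052 and 0.121), so that block is not backed by pairing there. At the other 7 treatments 0 of 8 members passed in limma, where 0.0657% of all genes passed at CT, 0.155% at EL and 0.0188% at HS. With salt in the medium the share of all genes was 0.0234% for S and also for S+EL, 0.0281% for S+HS and 0.061% for S+EL+HS. Over all 64 member tests 9 had an unadjusted p under 0.05.

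**Figure D4:**
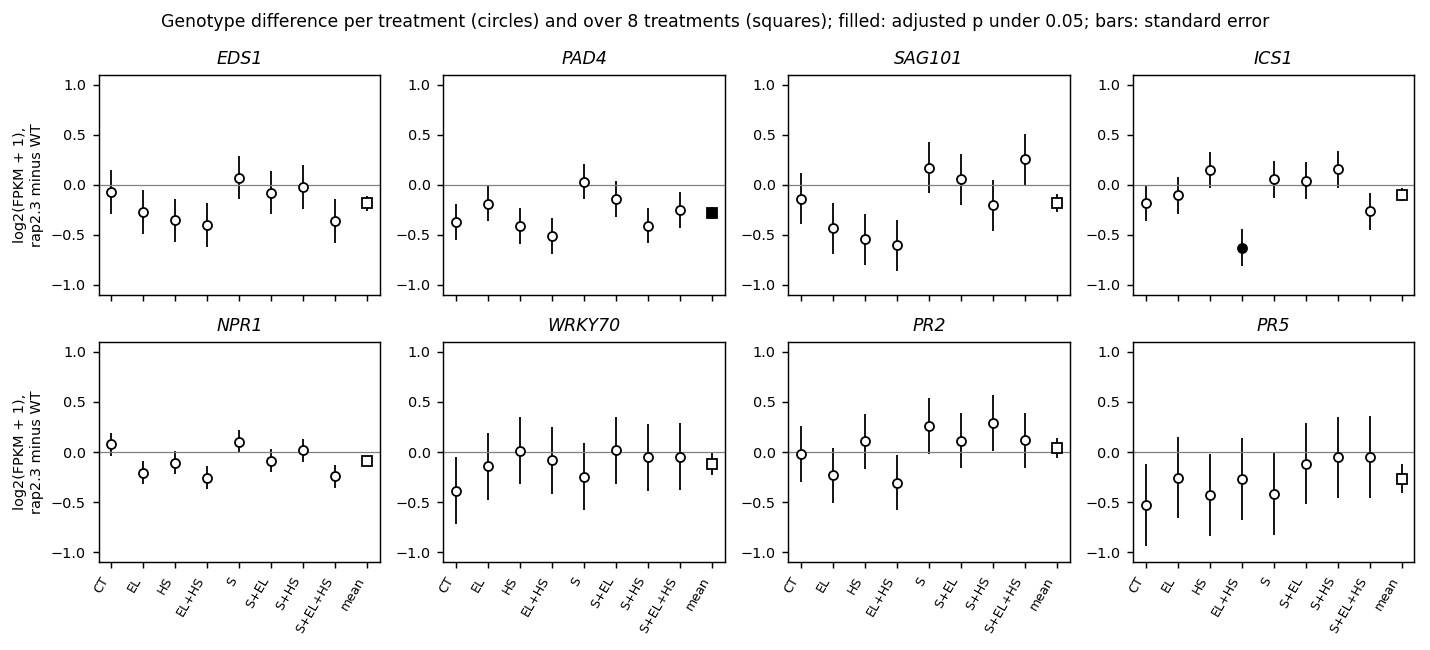
Difference in log2(FPKM + 1) of the libraries labelled rap2.3 minus WT (y axis) at each treatment (circles, x axis) and averaged over the 8 treatments (squares) for the 8 tested genes, with standard errors as bars and filled symbols for adjusted p under 0.05. PAD4 lies below 0 at 7 of 8 treatments, and the filled symbols are its mean and ICS1 at EL+HS.

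Whether a stress response differed between the genotypes was tested as an interaction. In limma 0 of 56 member tests passed, with 1 at an unadjusted p under 0.05 (NPR1 at EL+HS, -0.34, adjusted p 0.534), and at most 0.00469% of all genes passed at any stress. For the mean effects of light, heat and salt, a comparison added after the data were seen, 0 of 24 passed in limma, with 3 at an unadjusted p under 0.05 and 0% of all genes passing. Those 3 were NPR1 (-0.22 ± 0.08, adjusted p 0.428) and ICS1 (-0.28 ± 0.13, 0.489) with light and SAG101 with salt. The heat difference of PAD4 was not shown to differ between the genotypes (-0.23 ± 0.12, 0.957).

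The members did not share a single pattern over the 16 group means of log2(FPKM + 1), which come from the same libraries and are compared here as a description. The highest Pearson r among them was 0.82 for NPR1 and PAD4, followed by 0.778 for EDS1 and PAD4 and 0.695 for ICS1 and SAG101. PR5 had r between -0.226 and 0.345 with the other members. Over all genes with a mean of at least 1 FPKM, the most similar to EDS1 were SEOR1 (r 0.976), RR10 (0.97) and LCR69 (0.97). Those nearest to PAD4 were AAP5 (0.953), DJ1A (0.947) and AO1 (0.943). ICS1 was most like AT4G00990 (0.974), NPR1 like AT5G19970 (0.932), WRKY70 like AT3G48070 (0.927), SAG101 like AT2G37120 (0.906) and PR5 like AT3G15356 (0.932).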

How the data were processed

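RNA sequencing of 48 whole-seedling libraries was analysed from 2 tables of FPKM per gene, 1 per genotype, that the authors deposited. The submitters' processing notes name HISAT2, Cufflinks and TAIR10; settings, gene annotation and strand use are not given in the sources used here. The tables hold 32824 locus identifiers, 2 of them on more than 1 row (summed). Because 2028 positive values are under 1e-100, a value of 0 can be a failed estimate.

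The log2(FPKM + 1) values of each genotype, or of both, entered limma 3.58.1 under R 4.3.3 (trended eBayes, 1 mean per group), for every gene that 3 or more of the fitted libraries held at 1 FPKM or above. Stress and factor contrasts used the 24 libraries of a genotype, genotype contrasts and interactions all 48. P-values were Benjamini-Hochberg adjusted within each contrast, with 0.05 as the threshold. On simulated data with 200 genes changed by 1.5 on the log2 scale, a stress contrast (WT EL against CT, 20389 genes) recovered 194 and called 5 others. An interaction contrast (HS, 20737 genes) recovered 177 of 200 and called 9 others. The changed genes were drawn from those with higher mean levels than PR2, PR5, WRKY70 and ICS1. A change of 1.5 also exceeds most member differences, so these recoveries do not carry over to the members.

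Genotype and table are the same division, so an effect of the table cannot be told apart from it. P-values measure the spread between the 3 libraries of a group, shared over all groups of the fit and drawn by eBayes toward genes of similar level. Only the alternative with only the compared libraries took the spread from the compared groups alone. The genes named were the 10 members, genes of the pathway and marker lists among those that passed, picked for large changes after their values were seen, and the genes most similar to each member. BG3, AT1G64270 and AT1G08667 are named as near copies or overlapping genes. Members and lists were chosen with earlier results of these data known. Alternatives were a pseudocount of 0.1, no filter, rescaling by size factors (15370 genes), a replicate block, a treatment and replicate block, only the compared libraries, and each library left out. Replicate numbers were checked by correlating deviations of same-numbered libraries. Between genotypes at EL these were 0.52, 0.103 and 0.414, all above 0.1, which counts as pairing there, and at the other 7 treatments and between stress and CT at least 1 of the 3 was not. Promoter windows and names come from RefSeq's TAIR10.1, which holds 32539 of the identifiers.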

Additional observations from a re-analysis of the deposited data

How the results depend on the processing

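Of 57 member tests that passed, 3 of them PR2 with salt in the libraries labelled rap2.3, 35 passed under every alternative run, and in none of the alternatives did a called difference change sign. The 12 WT calls against CT became 7 when the fit held only the compared libraries and ranged from 7 (without WT CT replicate 1 or 3) to 14 when 1 library was left out. Those of the libraries labelled rap2.3 (15) ranged from 10 to 18. The 16 factor calls of the libraries labelled rap2.3 ranged from 15 to 18 and the 12 of WT from 8 to 11. The 1 genotype call at a single treatment became 0 after rescaling by size factors, 0 with only the compared libraries and 3 with a treatment and replicate block, and ranged from 0 to 2 when 1 library was left out. The mean genotype difference had 1 call, 2 with the treatment and replicate block, and 1 to 2 when 1 library was left out. Interactions stayed at 0 in each of these settings. With the replicate block the counts were 14 and 16 in the libraries labelled rap2.3 and 10 and 9 in WT (against CT and by factor), 1 and 1 between genotypes and 0 for interactions. At EL, where replicate numbers paired the genotypes, the treatment and replicate block and the replicate block each left 0 member calls. The 3 calls with the treatment and replicate block were at EL+HS, where replicate numbers did not count as pairing.

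Read depth is unknown, so no detection limit can be given for values near 0, as for PR1, FMO1 and PR2. A difference on the log2(FPKM + 1) scale understates changes of such genes. The causes of the lost calls were not tested.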
